A study of Mus musculus with 16 samples.

Results

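Genes that build and break down glycogen were followed in gonadal white adipose tissue, the fat pad beside the testis and epididymis, of male C57BL/6 mice aged 3 to 4 months. Fed mice had free access to food and gave 8 samples. Fasted mice had been without food for 16 hours and gave the other 8. All were sampled in the morning, and the labels give no treatment or genetic change other than food. The 9 genes were picked by symbol from the array's annotation, out of 22180 genes with a probe set of their own. They were the synthesis genes Ugp2, Gyg, Gys1 and Gbe1, the phosphorylase isoforms Pygb, Pygl and Pygm, and the targeting subunits Ppp1r3b and Ppp1r3c. Ppp1r3b had 2 probe sets, of which the brighter was used, and each other gene had 1.

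Glycogen is a branched store of glucose. Ugp2 makes UDP-glucose, glycogenin (Gyg) primes a chain, glycogen synthase (Gys1) lengthens it and the branching enzyme (Gbe1) adds branch points, while glycogen phosphorylase releases glucose 1-phosphate. Insulin favours synthesis in part through protein phosphatase 1, which targeting subunits bring to the glycogen particle. Adrenergic signals favour breakdown through protein kinase A and phosphorylase kinase. Fat cells hold far less glycogen than liver or muscle.

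After the fast, 5 of the 9 genes were lower and none was higher. Pygb and Ppp1r3b fell by the most, each 2.54-fold, though the second, dimmer probe set of Ppp1r3b did not pass the test. Gbe1 fell 1.39-fold, Pygm 1.31-fold and Pygl 1.30-fold. Gys1, Gyg, Ugp2 and Ppp1r3c did not pass the test. A gene was called where limma's adjusted p, corrected over all genes, was under 0.05. Over all 22180 genes, 19.2% were called, 10.7% as lower and 8.49% as higher in fasted arrays. Higher genes made up 44.3% of these calls, and 54.7% once array medians were subtracted. The median log2 difference of the 9 genes was -0.38, and that of all genes was -0.0042. Without fed replicates 2 and 3 and fasted replicate 7, arrays that stood apart in an earlier view of these data, 4 of the 9 were lower and none higher.

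**Figure D1:**
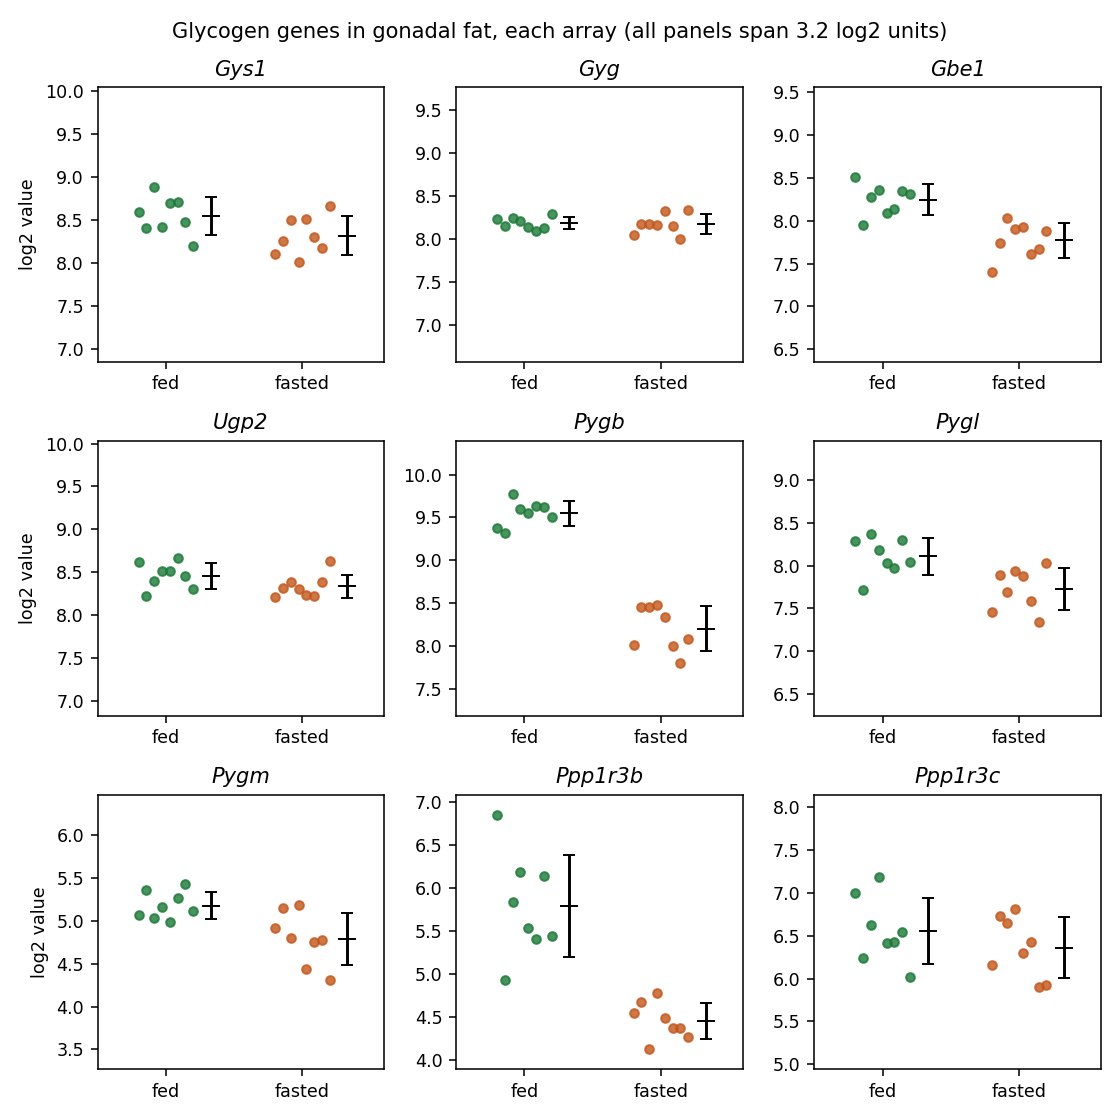
Log2 array value (vertical axis) of each glycogen gene in every fed (green) and fasted (orange) array, with the group mean and SD as a bar beside the points. Each panel spans the same number of log2 units. The fasted points of Pygb and Ppp1r3b lie below every fed point, while those of Gyg and Ppp1r3c overlap the fed points.

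The arrays carried the markers of fat. All 11 measured adipocyte markers passed a filter on dim values (a linear value of at least 20, 4.32 on the log2 scale, in at least 8 arrays). Their mean log2 level lay between 10.66 and 10.90 in fed and between 10.64 and 10.87 in fasted arrays. Of these markers 2 were called higher and 2 lower. The mean of 16 liver markers ranged from 5.43 to 8.37 in fed and from 5.67 to 7.78 in fasted arrays. The mean of 7 markers of ciliated epithelium stood at 5.23 in fed replicate 2 and 4.76 in fasted replicate 7, against at most 3.42 in the other arrays. Of 9 macrophage markers 3 were called higher, among them Cd68 by 0.88 and Cd163 by 0.73, and 1, Mrc1, lower, by 0.23. The median log2 difference of these 9 markers was -0.024. Of 7 endothelial markers 2 were called higher, among them Pecam1 by 0.39, and none lower. Of 6 smooth muscle markers 1, Acta2, was called higher, by 0.80, and none lower, while the median log2 difference of the 6 was -0.14. Of 4 preadipocyte markers 1, Cd34, was called lower, by 0.52, and none higher, with a median of -0.069. The part of these cell types in the differences of the glycogen genes was not tested. In a whole fat pad, fewer cells of a type and less RNA per cell cannot be told apart. All 9 glycogen genes passed the filter on dim values, as did 10832 of all genes.

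Of the genes of synthesis, Gbe1 fell and the other 3 did not pass the test. Gbe1, on chromosome 16 (chr16:70313949-70569720, build GRCm38.p6), had a lowest, median and highest log2 value of 7.94, 8.29 and 8.51 in fed arrays. In fasted arrays these were 7.40, 7.81 and 8.03. Of the 8 fasted arrays 7 lay below the lowest fed array, which was fed replicate 2, so the groups overlapped by a small margin. The log2 difference, fasted minus fed, was -0.47 (SE 0.095), from 8.25 ± 0.18 to 7.77 ± 0.20 (SD, n = 8 per group; limma adjusted p = 0.00124).

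Gys1 encodes the glycogen synthase of muscle and most other tissues (chr7:45434839-45456617). Its fed arrays ran from 8.20 through a median of 8.54 to 8.88, and its fasted arrays from 8.01 through 8.28 to 8.67. Of the fasted arrays 7 stood below the fed median, yet the ranges overlapped widely. The log2 difference was -0.23 (SE 0.11), with an adjusted p of 0.158 in limma and an unadjusted p of 0.0441. Ugp2 (chr11:21321126-21371267) went from 8.46 ± 0.15 to 8.34 ± 0.14 on the log2 scale (limma adjusted p = 0.326). Its difference of -0.12 had a 95% interval from -0.29 to 0.038. Glycogenin showed the smallest difference of the 9 genes. Gyg (chr3:20122083-20155117) averaged 8.19 ± 0.07 over the fed and 8.17 ± 0.12 over the fasted arrays, a difference of -0.017 with a 95% interval from -0.15 to 0.11. These intervals bound the change on this array scale and do not show that the levels were equal.

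All 3 phosphorylase isoforms fell, Pygb by more than Pygl and Pygm. Pygb, named for the brain isoform and found in many tissues (chr2:150786796-150831748), had a lowest, median and highest log2 value of 9.32, 9.57 and 9.78 in fed arrays. In fasted arrays these were 7.81, 8.21 and 8.48. The groups did not overlap, and a gap of 0.85 on the log2 scale lay between them. Over all genes, 6.48% had groups that did not overlap, and 3.45% of all genes had every fasted array below every fed array. The log2 level of Pygb fell by 1.34 (SE 0.10), from 9.55 ± 0.15 to 8.20 ± 0.26 (SD, n = 8 per group; limma adjusted p = 3.12e-08). Every alternative run kept this call.

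Pygl, the isoform of liver (chr12:70190815-70227683), ran from 7.72 through a median of 8.11 to 8.36 in fed arrays. In fasted arrays it ran from 7.34 through 7.79 to 8.03. All 8 fasted arrays lay below the fed median, but the ranges overlapped, with 4 fasted arrays below the lowest fed array, fed replicate 2. Pygl fell by 0.38 (SE 0.11, limma adjusted p = 0.0191). The call ended when array medians were subtracted (adjusted p = 0.0762).

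Pygm, the isoform of skeletal muscle (chr19:6384408-6398464), ran from 4.98 through a median of 5.14 to 5.43 in fed arrays and from 4.31 through 4.79 to 5.18 in fasted arrays. Its lowest fasted value lay just below the limit of the filter on dim values, and 6 of 8 fasted arrays lay below every fed array. Pygm fell by 0.39 (SE 0.12, limma adjusted p = 0.0235). The call ended with cyclic loess (adjusted p = 0.0524), with repeated quantile normalization (0.0544), with an exact rank sum test (0.0706), and without the 3 arrays that stood apart (0.0668). It also ended without fasted replicate 5 (0.0506) or fed replicate 7 (0.0512).

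**Figure D2:**
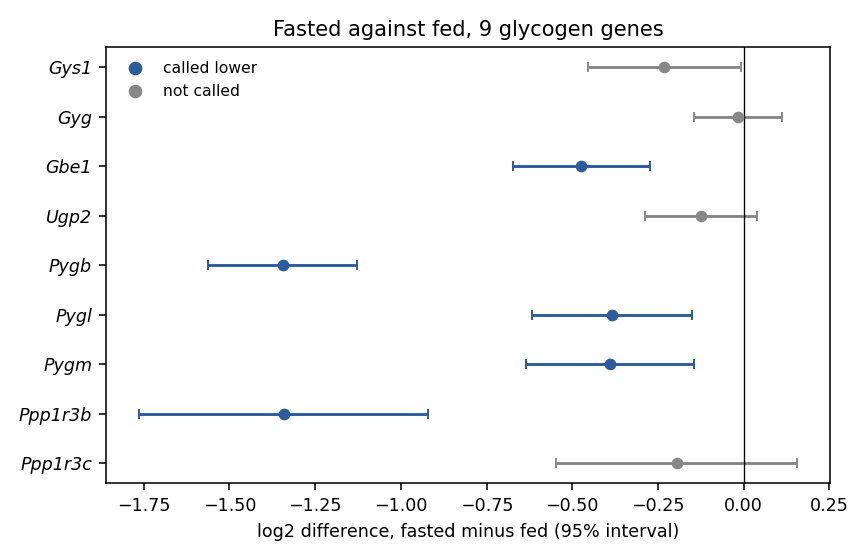
Log2 difference, fasted minus fed (horizontal axis), of the 9 glycogen genes with 95% intervals from limma, with genes called lower in blue and others in grey. Pygb and Ppp1r3b lie near -1.34, and the intervals of Gyg, Ugp2 and Ppp1r3c cross 0.

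To ask whether related members changed unequally, 1 gene was subtracted from another within each array and the difference was compared between groups. Its size in 1 group mixes expression with probe brightness, so the shift between groups is what was compared. The 4 pairs compared were tested with an exact permutation test, two-sided, over all 12870 splits of the 16 arrays. Pygb minus Pygl went from 1.44 ± 0.18 in fed to 0.48 ± 0.20 in fasted arrays, a shift of -0.96 (95% interval -1.17 to -0.76). Pygb minus Pygm shifted by -0.96 (95% interval -1.26 to -0.65). For both, the 8 fasted arrays lay below the 8 fed arrays, with an exact permutation p of 0.0001554, the smallest this design can give, and p = 0.0002072 after Benjamini-Hochberg adjustment over the 4 pairs. On the log2 scale Pygb thus fell by more than either other isoform. Arrays compress differences at dim values, and the part of this in the smaller fall of Pygm was not tested. Pygl minus Pygm shifted by 0.0054, with a 95% interval from -0.39 to 0.40 and an exact permutation p of 0.978.

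**Figure D3:**
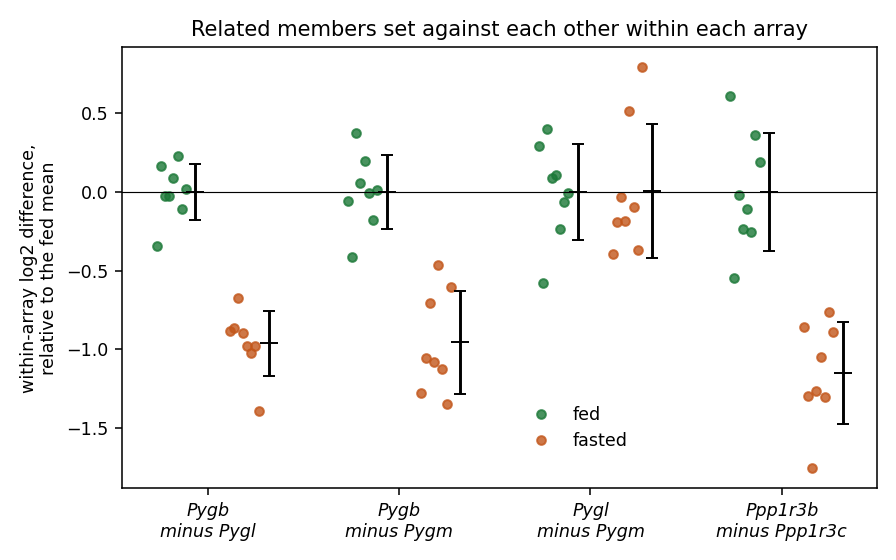
Within-array log2 difference between related members (vertical axis), set to 0 at the fed mean of each pair, for fed (green) and fasted (orange) arrays, with group mean and SD as bars. The fasted points of Pygb minus Pygl, Pygb minus Pygm and Ppp1r3b minus Ppp1r3c lie below all fed points, and those of Pygl minus Pygm do not.

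The sequence before the start of each phosphorylase gene is shown because all 3 isoforms were called lower, Pygb by the most. That of Gys1, the synthase, which was not called, is shown beside them. Whether Gys1 changed unequally to the phosphorylases was not tested. Each is the 250 bases before the RefSeq start, 5′ to 3′ on the gene's strand, from the RefSeq promoter table of build GRCm38.p6. The windows are chr2:150786546-150786795 on the plus strand for Pygb, chr12:70227684-70227933 on the minus strand for Pygl, chr19:6384158-6384407 on the plus strand for Pygm and chr7:45434589-45434838 on the plus strand for Gys1. Capitals mark matches, on either strand, to any of 7 motifs: the E-box CACGTG, the forkhead motif TGTTTAC, the cAMP response element TGACGTCA, the CCAAT box CCAAT, the GC box GGGCGG, the TATA box TATAAA and the muscle E-box CAGCTG.
Pygb: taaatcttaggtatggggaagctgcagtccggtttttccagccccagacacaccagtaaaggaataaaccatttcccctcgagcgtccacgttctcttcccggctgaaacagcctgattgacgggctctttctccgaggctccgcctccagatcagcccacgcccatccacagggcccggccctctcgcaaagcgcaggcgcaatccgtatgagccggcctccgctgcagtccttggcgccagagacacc
Pygl: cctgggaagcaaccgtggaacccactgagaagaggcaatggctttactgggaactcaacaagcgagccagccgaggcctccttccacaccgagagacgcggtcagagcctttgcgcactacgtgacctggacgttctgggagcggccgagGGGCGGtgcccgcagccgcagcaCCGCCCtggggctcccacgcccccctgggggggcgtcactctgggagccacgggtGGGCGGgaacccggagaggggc
Pygm: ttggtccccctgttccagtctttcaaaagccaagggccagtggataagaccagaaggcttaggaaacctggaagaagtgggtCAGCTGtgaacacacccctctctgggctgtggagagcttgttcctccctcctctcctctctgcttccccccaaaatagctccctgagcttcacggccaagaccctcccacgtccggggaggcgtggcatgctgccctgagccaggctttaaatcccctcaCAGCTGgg
Gys1: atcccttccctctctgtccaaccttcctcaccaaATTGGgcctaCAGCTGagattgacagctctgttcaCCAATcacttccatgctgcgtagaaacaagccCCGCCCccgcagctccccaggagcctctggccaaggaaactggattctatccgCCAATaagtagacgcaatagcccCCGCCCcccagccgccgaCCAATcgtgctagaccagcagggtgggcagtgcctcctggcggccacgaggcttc

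The 3 phosphorylase windows held different motifs. The Pygb window held none of the 7. That of Pygl held the GC box 3 times and was 69.2% G and C, against a median of 52.4% over all 32851 promoter windows. The Pygm window held the muscle E-box at 2 places, starting 168 and 8 bases before the start. The Gys1 window held the CCAAT box 4 times, the GC box at 2 places and the muscle E-box once.

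Among all windows of the same length, 32.7% held the GC box, 33.8% the CCAAT box, 13% the muscle E-box, 6.02% the E-box, 12.4% the TATA box, 3.17% the forkhead motif and 1.55% the cAMP response element. Windows were found for 8 of the 9 genes, 9 in all since Ugp2 had 2, and none for Ppp1r3b. Of these 9 windows 5 held the GC box, 4 the muscle E-box, 3 the CCAAT box and 1, that of Ppp1r3c, the E-box, while 0 held the forkhead, TATA or cAMP motif. No matches overlapped each other. A match is a run of letters, and neither a match nor its absence shows what binds there.

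The targeting subunits that bring protein phosphatase 1 to glycogen also differed. Ppp1r3b (chr8:35375694-35388139), which is abundant in liver, ran from 4.93 through a median of 5.69 to 6.85 in fed arrays, and from 4.13 through 4.43 to 4.78 in fasted arrays. The groups did not overlap, with a gap of 0.15 on the log2 scale. Ppp1r3b fell by 1.34 (SE 0.20, limma adjusted p = 7.47e-05). Its SD was 0.60 among the fed and 0.21 among the fasted arrays, with fed replicate 1 highest and fed replicate 2 lowest. Its fasted mean, 4.45, lay close to the limit of the filter on dim values. Fasted replicates 3 and 8, at 4.13 and 4.27, lay below that limit. The part of compression at dim values in the size of this fall was not tested.

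The second, dimmer probe set of Ppp1r3b did not give that fall. It averaged 4.00 ± 0.19 over the fed and 3.74 ± 0.20 over the fasted arrays, below 4.32 in all 16, and differed by -0.26 (SE 0.098, limma adjusted p = 0.0742 among all probe sets).

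Ppp1r3c (chr19:36731731-36736604), also called protein targeting to glycogen, ran from 6.02 through a median of 6.48 to 7.19 in fed arrays and from 5.90 through 6.36 to 6.81 in fasted arrays. The ranges overlapped, with 2 fasted arrays below every fed array and 2 fed arrays above every fasted array. Its difference of -0.20 had a 95% interval from -0.55 to 0.16 (limma adjusted p = 0.519). Within arrays, Ppp1r3b minus Ppp1r3c shifted by -1.15 (95% interval -1.52 to -0.77, higher in all fed than in any fasted array, exact permutation p = 0.0001554, adjusted p = 0.0002072 over 4 pairs). With the dimmer probe set of Ppp1r3b the shift was -0.065 (adjusted p = 0.903 by the exact permutation test), so the difference between these subunits rested on the brighter probe set.

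Some arrays were low or high in several glycogen genes together. Fasted replicate 4 was the highest fasted array for Pygb, Pygm, Ppp1r3b and Ppp1r3c, and fasted replicate 8 for Gys1, Gyg, Ugp2 and Pygl. Fed replicate 3 was the highest fed array for Gys1, Pygb and Pygl. Fed replicate 2 was the lowest fed array for Gbe1, Ugp2, Pygb, Pygl and Ppp1r3b, and fasted replicate 7 the lowest fasted array for Gyg, Pygb, Pygl and Ppp1r3c. Fed replicate 2 and fasted replicate 7 had the highest ciliated epithelium means, 5.23 and 4.76. Fasted replicate 4, high in several genes, had the next highest of the fasted group, 3.31. The adipocyte means of fed replicate 2 and fasted replicate 7, 10.66 each, were the lowest of the fed group and the second lowest of the fasted group. The part of this in the spread of the glycogen genes was not tested. Without fed replicates 2 and 3 and fasted replicate 7, Pygb differed by -1.29 on the log2 scale, Ppp1r3b by -1.47, Gbe1 by -0.51 and Pygl by -0.35. These 4 genes kept their calls.

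Pygm, Pygl and Ppp1r3b are also known from muscle or liver, so markers of those tissues were set beside them. Of 14 skeletal muscle markers 13 failed the filter on dim values, among them Ckm, the muscle creatine kinase, and none was called. Their mean log2 level lay between 3.00 and 3.32 in fed and between 2.97 and 3.14 in fasted arrays. Pygm and the muscle mean had a Pearson's r of 0.415 in the 8 fed arrays (p = 0.313 by exact permutation), where Spearman's rho was 0.262 (p = 0.536, likewise). In fasted arrays r was 0.399 (exact permutation p = 0.318, n = 8) and rho 0.643 (exact permutation p = 0.0962). Once the 2 arrays most distant from the median muscle mean were dropped, r was -0.787 in fed and 0.750 in fasted arrays, so the fed value rested on those arrays. With the muscle mean as a covariate the differences of Pygm and Pygl were -0.33 and -0.30, and limma's adjusted p was 0.0697 and 0.0593. Since 13 of the 14 markers were dim, this mean cannot be taken to measure muscle content. No conclusion on muscle is drawn from these values.

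Neither liver-known gene showed a relation with the liver mean past the test. Pygl had r = 0.0896 (exact permutation p = 0.832, n = 8) and rho = 0.381 (exact permutation p = 0.360) in fed arrays, and r = -0.108 (exact permutation p = 0.794) and rho = 0.167 (exact permutation p = 0.703) in fasted arrays. Ppp1r3b had r = -0.0804 (exact permutation p = 0.851, n = 8) and rho = 0.0714 (exact permutation p = 0.882) in fed arrays, and r = 0.356 (exact permutation p = 0.385) and rho = 0.238 (exact permutation p = 0.582) in fasted arrays. With the 2 arrays most distant from the median liver level dropped, r was 0.537 and 0.0818 for Pygl and 0.392 and 0.0486 for Ppp1r3b, in fed and fasted arrays in turn. Over the 6 relations the smallest adjusted p was 0.771 for r and 0.577 for rho, by exact permutation with n = 8. Of the 16 liver markers Apoc3 and Cyp2e1 were called higher and none lower. With the liver mean as a covariate 5 of the 9 glycogen genes remained lower.

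**Figure D4:**
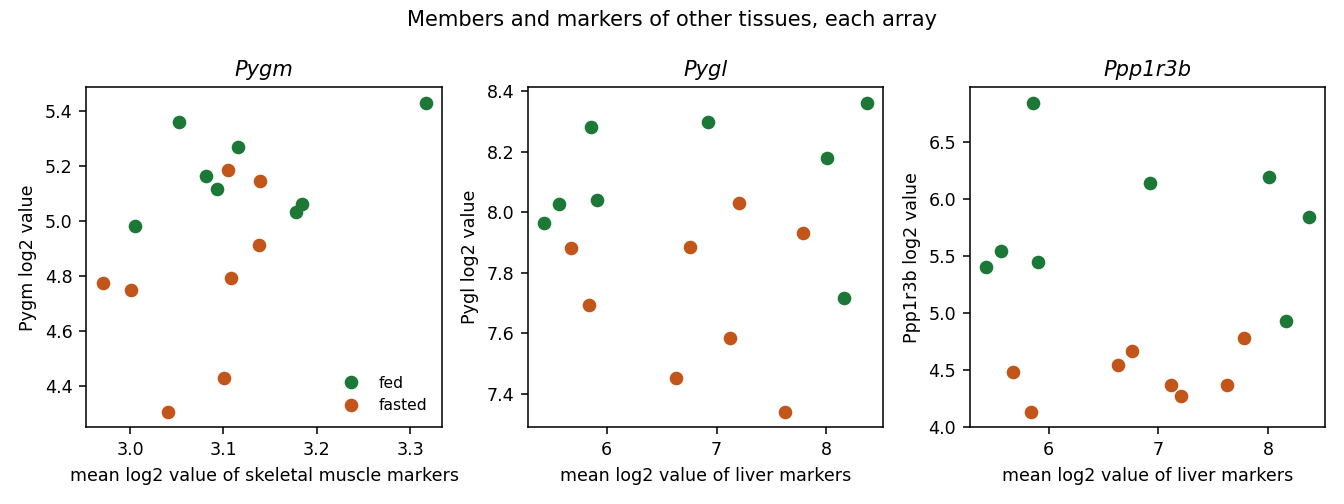
Log2 value of Pygm, Pygl and Ppp1r3b (vertical axes) against the mean log2 value of skeletal muscle or liver markers (horizontal axes) in each fed (green) and fasted (orange) array. Ppp1r3b is lower in fasted arrays at low and at high liver means alike.

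The genes whose values followed each of 3 members most closely were found from deviations from the group means over the 16 arrays, as a description of likeness. For Pygb they were Slc46a3 (r = 0.877), Glb1l2 (r = 0.870) and the dim transcript 4933402D24Rik (r = 0.857). For Ppp1r3b they were Polr3k (r = 0.910), Npdc1 (r = 0.875) and Tmem120b (r = 0.857), and for Gbe1 they were Gna11 (r = 0.910), Ywhab (r = 0.858) and Mettl4 (r = 0.858). Among these 9 genes, Glb1l2, Polr3k and Tmem120b were themselves lower in fasted arrays, by 0.87, 0.43 and 0.46 on the log2 scale, and the others were not called.

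The wider machinery of glycogen was taken as 40 further measured genes in 5 lists, of which 13 fell, 4 rose and 23 did not pass the test, with a median log2 difference of -0.0016. Over all genes 10.7% were called lower and 8.49% higher, the shares beside which the counts of each list stand. Most of the 40 genes passed the filter on dim values. Among the 10832 genes that passed it, the shares were larger, with 2583 called lower and 1970 higher. Phosphorylase kinase, which activates phosphorylase, had 3 of 5 subunits lower and none higher. Phka2, the regulatory alpha subunit of liver, fell by 0.67 (SE 0.074), from 8.86 ± 0.17 to 8.19 ± 0.09 with no overlap (SD, n = 8; limma adjusted p = 2.71e-06). Phkb, the beta subunit, fell by 0.31 (SE 0.058, limma adjusted p = 6.90e-04), also with no overlap. Phkg1, the catalytic gamma subunit of muscle, fell by 0.61 (SE 0.18, limma adjusted p = 0.0229). That call ended with an exact rank sum test (0.0913) and without the 3 arrays that stood apart (0.0909). It also ended with the mean of the mostly dim muscle markers as a covariate (0.0534). Phkg2, the other catalytic subunit, and Phka1 were not called, at -0.12 and 0.11.

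**Figure D5:**
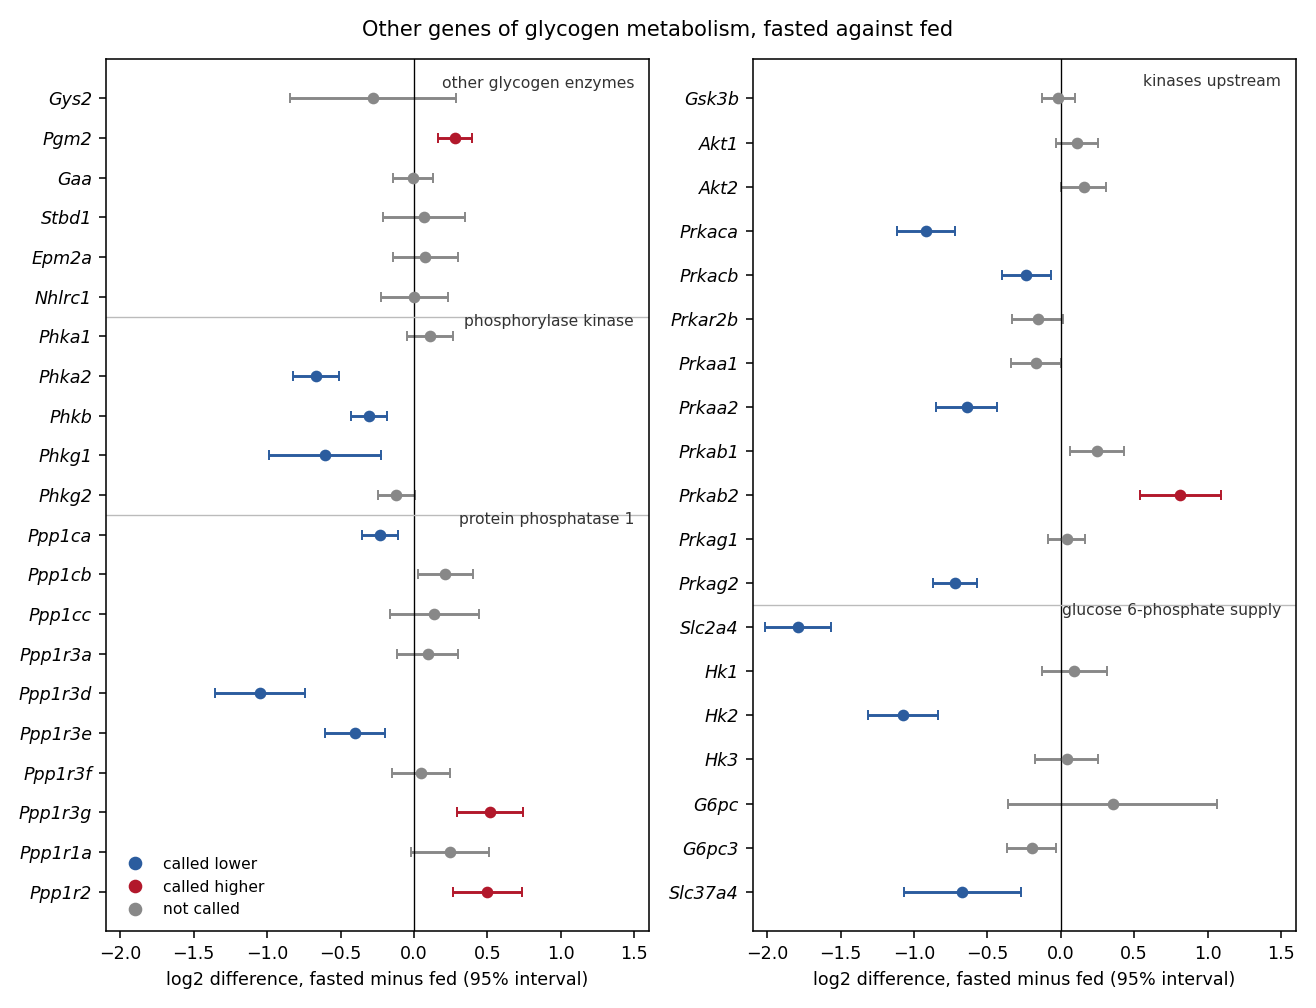
Log2 difference, fasted minus fed (horizontal axes), with 95% intervals from limma, of 40 other genes of glycogen metabolism, grouped by list, with genes called lower in blue, called higher in red and not called in grey. Slc2a4, Hk2 and Ppp1r3d lie farthest below 0, and Prkab2 farthest above it.

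Of 10 genes of protein phosphatase 1 and its subunits, 3 fell and 2 rose. Ppp1r3d, another glycogen-targeting subunit, fell 2.07-fold, from 5.70 ± 0.39 to 4.65 ± 0.22 on the log2 scale, and the groups did not overlap (SD, n = 8; limma adjusted p = 3.28e-05). Ppp1r3e, a further targeting subunit, fell by 0.40 (SE 0.098) and the catalytic subunit Ppp1ca by 0.23 (SE 0.060). The call of Ppp1ca ended when array medians were subtracted (limma adjusted p = 0.0817). Ppp1r2, which encodes inhibitor 2 of the phosphatase, rose by 0.50 (SE 0.11). The targeting subunit Ppp1r3g was called higher, by 0.52 (SE 0.11), but stood at 2.73 ± 0.21 and 3.25 ± 0.24 and failed the filter on dim values. Ppp1r3a, the targeting subunit of muscle, was dim and not called, at 0.093 (SE 0.098).

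Among the other enzymes of glycogen, 1 of 6 was called, near the 19.2% of all genes. Pgm2, of the phosphoglucomutase family, rose 1.22-fold, from 7.23 ± 0.06 to 7.51 ± 0.08 with no overlap (SD, n = 8; limma adjusted p = 8.98e-04). Gys2, the glycogen synthase of liver, had a wide spread, at 5.69 ± 0.63 in fed and 5.41 ± 0.58 in fasted arrays (limma adjusted p = 0.578). The lysosomal glucosidase Gaa, the glycogen-binding Stbd1 and the Lafora disease genes Epm2a and Nhlrc1 were not called, with differences between -0.0061 and 0.078. Pgm1 was not analysed here.

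Of 12 upstream kinase genes 4 fell and 1 rose. Prkaca, a catalytic subunit of protein kinase A, fell 1.89-fold, from 9.51 ± 0.19 to 8.59 ± 0.19 with no overlap (SD, n = 8; limma adjusted p = 1.10e-06), and its other probe set fell by 0.67 (SE 0.11). Prkacb, another catalytic subunit, fell by 0.23 (SE 0.079, limma adjusted p = 0.0445). That call ended in most alternatives, among them the removal of the 3 arrays that stood apart (limma adjusted p = 0.170). AMP-activated protein kinase, whose beta subunits bind glycogen, moved both ways. Of its catalytic subunits, Prkaa2 fell by 0.64 (SE 0.100) and Prkaa1 was not called, at -0.17. Of its gamma subunits, Prkag2 fell by 0.72 (SE 0.072) and Prkag1 was not called, at 0.040. Of its beta subunits, Prkab2 rose by 0.82 (SE 0.13), from 6.26 ± 0.11 to 7.07 ± 0.38, and Prkab1 was not called, at 0.25. Prkaa2, Prkag2 and Prkab2 did not overlap between groups. Gsk3b, a kinase that inhibits glycogen synthase, differed by -0.017 (SE 0.054, limma adjusted p = 0.893).

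Supply of glucose 6-phosphate, from which glycogen is made, had 3 of 7 genes lower and none higher. The glucose transporter Slc2a4 and the hexokinase Hk2 fell by 1.79 and 1.08 on the log2 scale, with no overlap of groups. Slc37a4, which carries glucose 6-phosphate into the endoplasmic reticulum, fell by 0.67 (SE 0.19, limma adjusted p = 0.0171). Its highest value, 7.24, was in fed replicate 2, where the liver mean was 8.16. Fed replicate 3 had a higher liver mean, 8.37, with a Slc37a4 value of 6.02. Among fasted arrays Slc37a4 was highest in fasted replicate 7. Fed replicate 2 and fasted replicate 7 also had the highest ciliated epithelium means, 5.23 and 4.76. The part of ciliated epithelium in the values of Slc37a4 was not tested. With the liver mean as a covariate the difference of Slc37a4 was -0.68 (limma adjusted p = 0.00724), and without fed replicate 2 it was -0.53 (limma adjusted p = 0.0191). Without fed replicates 2 and 3 and fasted replicate 7 it was -0.66 (limma adjusted p = 7.82e-04).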

How the data were processed

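Per the labels' protocols, 100 ng of total RNA per sample was labelled for Affymetrix whole-transcript arrays. The values the authors deposited are on a log2 scale. The method was RMA, per the submitters' processing notes, and its version is not given in the sources used here. Single values lay between 0.99 and 13.2, with array medians from 3.60 to 3.69. Because RMA aligns the arrays, changes are relative to other transcripts, and dim or saturated probes compress differences. Precision rests on there being 8 arrays per group. Whether each sample was a separate mouse is not stated, so p-values measure only the spread between these samples, which may be technical. The labels name no batch.

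Probe sets with 1 gene symbol (23521 of 41345) were used, the highest by mean where a gene had several, which left 22180 genes. Differences were fitted in R 4.3.3 with limma 3.58.1 (lmFit, eBayes), two-sided, with Benjamini-Hochberg adjustment over all genes and no filter. Higher calls made up 44.3% of 4251 calls, and 54.7% (2086 higher, 1731 lower) after subtraction of array medians. Exact permutation tests used Python 3.11.15, and the fits were tested on simulated data.

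All 9 genes, every called gene of 5 further lists and set isoform or catalytic partners of the 9 (Gys2, Pgm2, Phkg1, Gsk3b, Ppp1r3a, Ppp1r3d, Ppp1r3g) were named, with the nearest 3 genes of the 3 members with the lowest p. The uncalled rest of the enzyme and phosphorylase kinase lists, Prkaa1, Prkab1, Prkag1 and single markers were named after their values were seen. Members and lists were chosen with earlier results of these data known. Alternatives were 2 filters on dim genes, 3 normalizations, a trended robust eBayes, weights per array, a replicate block, arrays left out, other probe sets, an exact rank sum test, a stricter threshold and 2 covariates.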

Additional observations from a re-analysis of the deposited data

Results flagged for a closer look

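Values that stood far from the rest of their group were looked for in 58 groups of 8 arrays, the fed and the fasted arrays of 29 named genes, and 4 were found. Chance alone flags about 5% of such groups. Ugp2 in fasted replicate 8 stood at 8.63, against 8.38 in the next highest fasted array. Ppp1ca in fed replicate 2 stood at 10.11, below the next lowest fed array at 10.25. Prkaca in fasted replicate 4 stood at 9.02, against 8.67 in the next highest fasted array. Slc37a4 in fed replicate 2 stood at 7.24, against 6.30 in the next highest fed array.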

How the results depend on the processing

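The calls of Pygb and Gbe1 held in all 31 alternatives run, with log2 differences from -1.38 to -1.28 for Pygb. Of the 9 glycogen genes, 4 or 5 were lower when 1 array was left out and 3 with a threshold of 0.01. With the mean of the mostly dim skeletal muscle markers as a covariate 3 were lower. None of the 9 was higher under any alternative. At the threshold of 0.01, 1214 genes were higher and 1552 lower. With the replicate number as a block, 4 of the 9 genes were lower, since Pygl lost its call (limma adjusted p = 0.0610), as did Phkg1 (0.0674) and Prkacb (0.0748). Over all genes the replicate block gave 1682 higher and 2147 lower calls. Samples with the same number correlated above 0.1 in 2 of 8 pairs (r from -0.216 to 0.218), and 2 of 8 fed samples correlated best with their own number, so the numbers are shared labels without evidence of pairing.

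Gyg, not called, changed sign to 0.023 with array medians subtracted and to 0.011 without the 3 arrays that stood apart, and ranged from -0.040 to 0.0079 when 1 array was left out. Gsk3b, not called, changed sign to 0.023 with array medians subtracted. The shift of Pygl minus Pygm was -0.037 with cyclic loess and -0.076 with repeated quantile normalization, and ranged from -0.11 to 0.062 when 1 array was left out. That of Ppp1r3b minus Ppp1r3c was -0.065 with the lowest probe set of each gene. Pearson's r without the 2 arrays farthest from the median changed sign for Pygm against the muscle mean in fed arrays (-0.787), Pygl against the liver mean in fasted arrays (0.0818) and Ppp1r3b against it in fed arrays (0.392). With array medians subtracted, r of Pygl against the liver mean in fed arrays was -0.0023. Where a value does not show it, the cause was not tested. Ppp1r3a and Ppp1r3g had no value under the filters on dim genes.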
